A study of Mus musculus with 94 samples.

Results

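The effect of trisomy on the RNA of long interspersed element-1 (L1) copies was examined in the cortex of mice that had received lamivudine. The libraries were chosen by their labels alone: 13 cortex libraries of trisomic Ts65Dn mice on lamivudine (TS-t) and 17 of wild-type littermates on lamivudine (WT-t), 30 of the 94 libraries of the series. The 18 cortex libraries of mice without treatment (9 TS-nt and 9 WT-nt) and the 30 hippocampus libraries of the treated groups were used only for comparison. Total RNA was sequenced, and each library gave a whole-number read count for each of 430083 L1 copies of the mouse genome.

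All mice were males of 3 to 4 months, bred from B6EiC4Sn.BLiA-Ts(1716)65Dn/DnJ females and B6C3F1/OlaHsd hybrid males, so that TS and WT animals shared litters and a mixed genetic background. Both groups drank water with lamivudine at 3 mg/kg, which the study's methods give as lasting 4 months, and the labels differ in genotype and, unevenly, in the animal numbers described further on. Each cortex library carries an animal number of its own. The methods also speak of pooling samples in groups of 3 at the RNA step, so that a library could stand for more than 1 animal, and the p-values given here measure the spread between libraries. A table of L1 counts holds no gene of a cell type, and the labelled tissue could not be checked against markers.

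L1 is the most widespread family of autonomous retrotransposons in mammals. A full-length copy carries a promoter and 2 open reading frames, of which the second encodes an endonuclease and a reverse transcriptase, and it moves by copying its RNA into DNA. Most copies are truncated or mutated and are transcribed, if at all, within the RNA of a gene or from a neighbouring promoter. In the mouse, subfamilies L1Md_T, L1Md_A and L1Md_Gf hold young copies that can still move. L1Md_F and its relatives are older, Lx copies arose within rodent lineages, and L1M copies date from early mammals. Lamivudine is a nucleoside analog that inhibits reverse transcriptase, a step that comes after transcription. Ts65Dn mice carry an additional chromosome made of the distal end of mouse chromosome 16 (MMU16) and the proximal end of MMU17, and are a model of Down syndrome in which some of the additional genes have no counterpart on human chromosome 21.

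The sum of L1 counts lay between 252114 and 641582 in TS-t libraries, with a median of 335492, and between 186545 and 373584 in WT-t libraries, with a median of 322736. The difference between the group means did not pass a permutation test (36979 counts higher in TS-t, two-sided p = 0.206). A TS-t library had a count on 31478 to 97606 elements and a WT-t library on 3168 to 65167. Libraries WT-t 1, 2, 3 and 16 and TS-t 1 and 2 stood apart on the first principal component of the cortex libraries, by over 3 median absolute deviations. In WT-t 1 only 3168 elements had a count, and 24.2% of its counts fell on the single element L1MEd_dup2089, against a median of 3.30% in WT-t. In TS-t 2 and TS-t 3 that element took 18.8% and 14.3%, and WT-t 2 lay between these values.

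**Figure D1:**
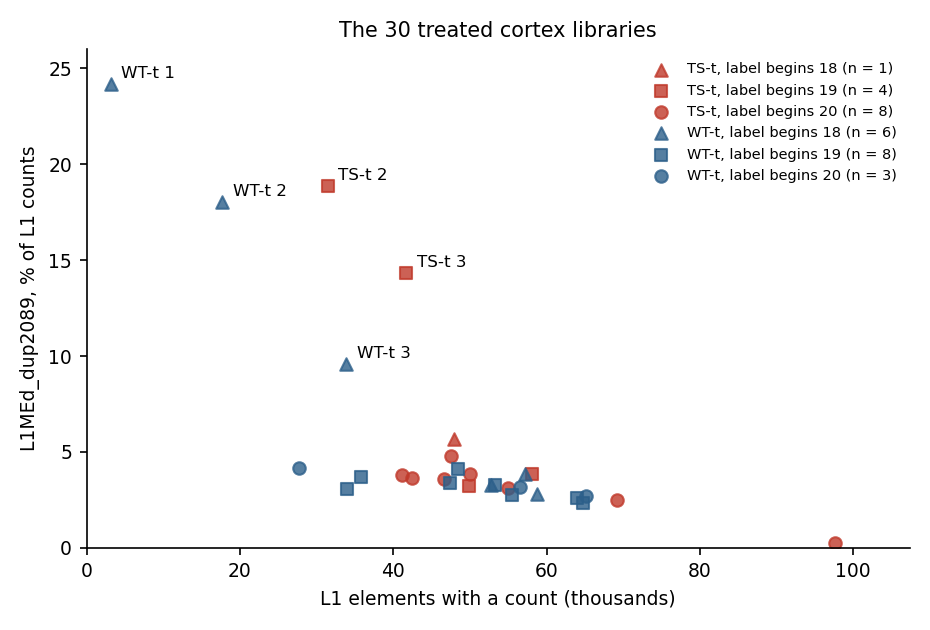
Each point is 1 of the 30 treated cortex libraries, with the number of L1 elements that had a count on the horizontal axis (in units of 1000) and the share of its L1 counts on element L1MEd_dup2089 on the vertical axis (%). Red is TS-t and blue WT-t, and the symbol gives the first 2 digits of the animal label. WT-t 1 stands at 3168 elements and 24.2%, and 24 of the 30 libraries lie under 5%.

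The first 2 digits of the animal label were spread unevenly over the genotypes, at 18, 19 and 20 in 1, 4 and 8 TS-t libraries and in 6, 8 and 3 WT-t libraries. What these digits stand for is not said in the labels. Values within labels that begin with 19 and 20 are therefore given for many, but not all, of the elements and subfamilies named. Where none are given, the values rest on all labels together and the uneven spread applies to them. For labels that begin with 18, with 1 TS-t library, no comparison was made.

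No L1 element was called different between TS-t and WT-t cortex. Of the 430083 elements, 5416 had enough counts to be tested, and 0 of them (0%) had an adjusted p-value below 0.1 in edgeR's quasi-likelihood test. The smallest adjusted p-value was 0.999. Without adjustment 106 elements (1.96%) had a p-value below 0.05, of which 86 (1.59% of those tested) were higher and 20 (0.369%) lower in TS-t. DESeq2 with the same elements called 0 and had 116 higher and 38 lower at an unadjusted p-value below 0.05. The median log2 fold change over the elements tested was 0.09. That excess of higher over lower elements depended on WT-t 1: without it the counts were 75 and 55 and the median log2 fold change was 0.03, and without the libraries that lay far on the first component they were 121 and 94 with a median of 0.01. In that last setting 215 of 5405 elements had an unadjusted p-value below 0.05. The smallest edgeR adjusted p-value there was 0.208, for L1Md_F_dup1709, and 0 elements were called. In bulk tissue, fewer cells of a type and less RNA per cell cannot be told apart, for this and every later value.

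**Figure D2:**
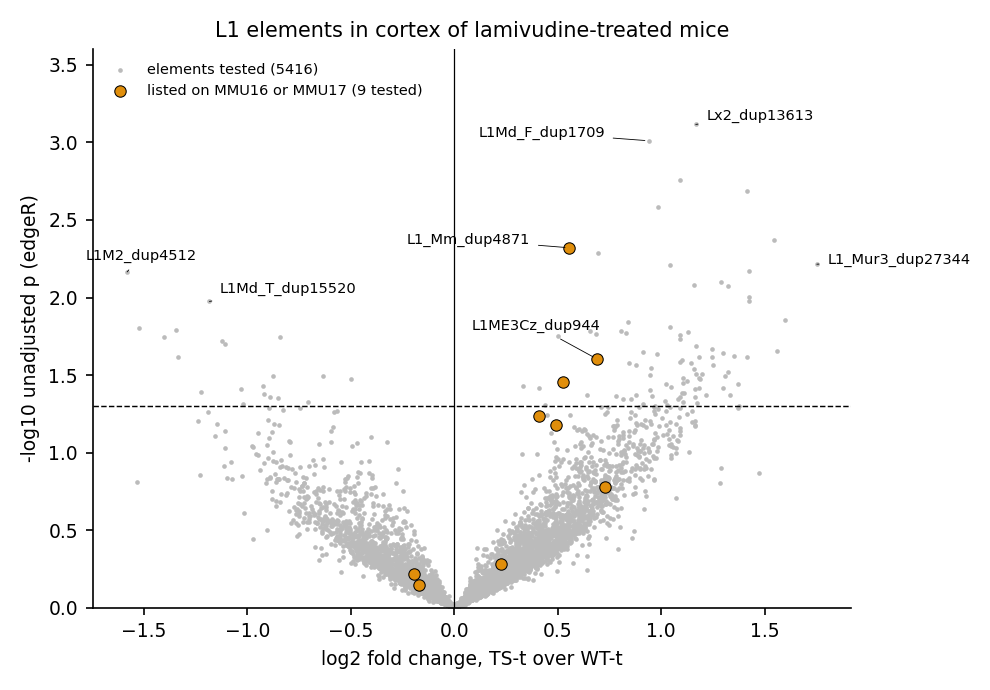
Each grey point is 1 of the 5416 elements tested, with the log2 fold change of TS-t over WT-t on the horizontal axis and the negative log10 of the unadjusted edgeR p-value on the vertical axis. Orange points are the 9 tested elements of the study's list on MMU16 or MMU17, and the dashed line is an unadjusted p-value of 0.05. More points lie above the line on the right (86) than on the left (20), and 0 of all points passed the adjustment.

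The precision of a single element was low. The median standard error of the log2 fold change was 0.49, and the coefficient of variation between libraries of a group, shared by all elements in the fit, was 0.744. Of the 287017 elements with any count in the treated cortex, 64726 had counts only in TS-t and 62023 only in WT-t libraries, with a median of 3 counts in all for either kind. An element seen only in TS-t was seen in at most 8 of 13 libraries, and one seen only in WT-t in at most 9 of 17. The groups did not overlap for 0 elements. Whole profiles did not differ beyond the spread between libraries either, with a pseudo-F (distance between groups over distance within groups) of 0.989 on the log2 values of the elements tested (permutation p = 0.413).

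The elements with the smallest p-values in either direction were chosen by this same comparison, and their values are a description. The 10 on the higher side had log2 fold changes between 0.56 and 1.75. The first was Lx2_dup13613, a copy of an Lx subfamily, whose level in TS-t was 43.4 CPM (normalized counts scaled to a common total on the tested elements) in the lowest library, 201 in the median and 678 in the highest, and in WT-t 0, 114 and 238. Its groups overlapped, and 5 of 13 TS-t libraries lay above every WT-t library (log2 fold change 1.17 ± 0.34 SE, unadjusted p = 0.000766). The means of Lx2_dup13613 were 496 against 122 CPM among labels that begin with 19 and 158 against 84.1 CPM among those that begin with 20.

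L1Md_F_dup1709 followed. This copy of 838 bases lies at chr8:99525609-99526446 on the plus strand, in an intron of the long noncoding RNA gene A330008L17Rik and in its direction. Its lowest, median and highest levels were 192, 339 and 1375 CPM in TS-t and 115, 190.1 and 418 CPM in WT-t. All 13 TS-t libraries exceeded the WT-t median, although the groups overlapped (log2 fold change 0.94 ± 0.28 SE, unadjusted p = 0.000977). The mean was 772 against 172 CPM among labels that begin with 19 and 294 against 188 CPM among those that begin with 20. The copy was also higher in the hippocampus of treated TS mice, at a log2 fold change of 0.88 ± 0.21 SE that did not pass the adjustment (edgeR adjusted p = 0.185). Among hippocampus labels that begin with 20 the value for L1Md_F_dup1709 was 0.22 (unadjusted edgeR p = 0.542).

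In 3 further elements every TS-t library lay above the WT-t median. L1_Mus1_dup23973 had a mean of 300.4 ± 92.1 CPM (SD, n = 13) in TS-t and 151 ± 105 CPM (n = 17) in WT-t, a log2 fold change of 0.98, but 240.1 and 242 CPM in TS-nt and WT-nt. L1_Mm_dup1632 had 102 ± 58.6 CPM in TS-t and 37.7 ± 31.1 CPM in WT-t, against 72 and 67.7 CPM in TS-nt and WT-nt. For Lx_dup6736 the levels were 70.8 ± 26.8 CPM in TS-t and 23.5 ± 23.4 CPM in WT-t. Its untreated means were 30.8 CPM in TS-nt and 51.2 CPM in WT-nt, so that the difference was positive with lamivudine (1.54 ± 0.53 SE, log2) and negative without (-0.72 ± 0.68). The test of that change of the genotype effect gave 2.27 ± 0.87 SE for Lx_dup6736, with an unadjusted p of 0.0101 and 0 elements past the adjustment. For L1_Mus1_dup23973 it gave 0.99 ± 0.52 SE (unadjusted p = 0.0593) and for L1_Mm_dup1632 1.32 ± 0.73 SE (unadjusted p = 0.0717), so that a change of their genotype effect was not shown. All 3 elements were chosen by the treated comparison, which is a part of that test, so that its values for them are a description too. The remaining members of this group were L1ME4a_dup1437 (log2 fold change 1.09), L1MB3_dup94 (0.69), L1_Mur3_dup27344 (1.75), L1Md_A_dup1285 (1.04) and L1_Mm_dup4871, which lies on MMU16. Only 6 of the 10 elements on the higher side had a log2 fold change of the same sign in untreated cortex. For 3 of the 10 the change of the genotype effect had an unadjusted edgeR p below 0.05, where 60 of all 5416 elements did.

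On the lower side the 10 elements had log2 fold changes between -1.58 and -0.84, and all were of low level, with WT-t means between 52.3 and 165 CPM. L1M2_dup4512 led them, at 0, 15.9 and 63 CPM in the lowest, median and highest TS-t library and 0, 36.7 and 275 CPM in WT-t. These groups overlapped, and 2 of 13 TS-t libraries were above the WT-t median (log2 fold change -1.58 ± 0.58 SE, unadjusted p = 0.00684). The highest WT-t library was WT-t 1. Without the libraries far on the first component L1M2_dup4512 was at -1.01 ± 0.56 SE (unadjusted edgeR p = 0.0716). L1Md_T_dup15520, a copy of a young subfamily, was at 42.8 ± 34.9 CPM in TS-t and 99.3 ± 61.1 CPM in WT-t (log2 fold change -1.18 ± 0.46 SE), and in untreated cortex at 125 CPM in TS-nt and 49.7 CPM in WT-nt (1.33 ± 0.57 SE). Within labels that begin with 20, to which all untreated mice belong, the treated means were 48.6 and 34.3 CPM, so that the treated difference was not negative there. The test of the change of the genotype effect gave -2.51 ± 0.73 SE, which did not pass the adjustment over 5416 elements. The treated difference by which L1Md_T_dup15520 was chosen is a part of that test, so that this value is a description. The other 8 were Lx2B_dup4190 (-1.52), L1_Mus3_dup1398 (-1.34), Lx8_dup17955 (-1.40), L1ME3D_dup48 (-0.84), Lx3_Mus_dup1034 (-1.12), L1MC1_dup978 (-1.11), Lx2B_dup1246 (-1.33) and Lx4A_dup4224 (-0.87). Of these, Lx3_Mus_dup1034 was highest in WT-t 1, at 446 CPM. Without the far libraries it was at -0.29 ± 0.46 SE (unadjusted edgeR p = 0.530).

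Elements on the chromosomes that make up the additional chromosome were examined next. The study lists 14 L1 elements on MMU16 or MMU17 among those it reported for any of its comparisons. Between them these comparisons used TS-t, TS-nt and WT-nt libraries of both tissues. The list is therefore no independent evidence of a direction in treated cortex, in untreated cortex or in hippocampus. P-values of the listed elements are for the same reason a description. With the trisomic segments taken as MMU16 from Mrpl39 to its distal end and MMU17 from its proximal end to Pde10a, 7 of the 14 lie within them. All 7 had a higher mean in TS-t, by 1.33-fold to 6.97-fold, and 5 of the 7 outside the segments did. Over all elements tested, 3286 of 5416 had a positive log2 fold change. Of the 14, 9 passed the filter on low counts. Among these, 0 were called (background 0%), and 3 were higher and 0 lower at an unadjusted p-value below 0.05, where 1.59% and 0.369% of all elements were. The median log2 fold change was 0.51 for the 4 tested elements within the segments and 0.23 for the 5 outside, beside 0.09 for all 5416.

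L1ME3Cz_dup944 lies at chr16:94395910-94396630 on the plus strand, in an exon of Ttc3, which encodes a ubiquitin ligase, in the direction of that gene. Its lowest, median and highest levels were 176, 307 and 459 CPM in TS-t and 0, 206 and 329.9 CPM in WT-t. The groups overlapped, with 6 of 13 TS-t libraries above every WT-t library and the WT-t library at 0 being WT-t 1. The log2 fold change was 0.69 ± 0.30 SE (unadjusted p = 0.0249, and two-sided permutation p of the mean difference 0.00049). It was 0.76 ± 0.40 SE in untreated cortex, which shares no library with the treated groups but served in the comparisons behind the study's list. Within labels L1ME3Cz_dup944 was 0.93 ± 0.29 SE higher among those that begin with 19 and 0.09 ± 0.30 SE (unadjusted p = 0.762) among those that begin with 20, to which all untreated mice belong.

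L1Md_F_dup3732 lies at chr16:98015457-98016275 on the minus strand, in an intron of A630089N07Rik in its direction and over an exon of B230307C23Rik on the opposite strand. Its levels were 239, 520.2 and 845 CPM in TS-t and 112, 339 and 775 CPM in WT-t, and 12 of 13 TS-t libraries exceeded the WT-t median while the ranges overlapped (log2 fold change 0.53 ± 0.25 SE, unadjusted p = 0.0349). L1MC1_dup5016, in introns of Gm41505 (same strand) and of Kcnj6 (opposite strand), a gene for an inwardly rectifying potassium channel, had levels of 158, 447 and 1137 CPM in TS-t and 169.7, 257 and 721 CPM in WT-t. Its difference of 0.49 ± 0.26 SE (log2) did not reach an unadjusted p of 0.05 (edgeR p = 0.0658). Among labels that begin with 19 and 20, L1Md_F_dup3732 was at 0.39 ± 0.28 and 0.52 ± 0.25 SE and L1MC1_dup5016 at 0.62 ± 0.33 and 0.25 ± 0.41 SE.

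L1Md_F2_dup59906 had the highest mean level of the listed elements within the segments. It lies on MMU17 at chr17:3111781-3112547, on the minus strand, in an exon of the transcribed pseudogene Gm21926. It was at 727, 1623 and 2222 CPM in the lowest, median and highest TS-t library and at 46.4, 1194 and 2204 CPM in WT-t, where the lowest library was WT-t 1. The ranges overlapped and 11 of 13 TS-t libraries were above the WT-t median (log2 fold change 0.41 ± 0.21 SE, unadjusted p = 0.0578). For L1Md_F2_dup59906 the value was 0.16 ± 0.21 SE among labels that begin with 19, 0.58 ± 0.21 SE among those that begin with 20 and 0.24 ± 0.13 SE without the libraries far on the first component. The first 150 bases of this copy, chr17:3112398-3112547 on the minus strand, are shown because it carried the most counts of the listed copies inside the segments, and they are written 5′ to 3′ as in the GENCODE transcript of Gm21926 (GRCm38):
L1Md_F2_dup59906: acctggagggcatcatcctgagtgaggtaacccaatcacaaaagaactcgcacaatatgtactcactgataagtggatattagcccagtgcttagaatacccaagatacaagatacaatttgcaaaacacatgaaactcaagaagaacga

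The 3 other elements within the segments lie in introns of Dscam, which encodes a neuronal cell adhesion molecule, and had too few counts to be tested. L1M2_dup16808 also overlaps an exon of AC154538.1 on its own strand. L1M2_dup16808 had 69 counts over the TS-t and 23 over the WT-t libraries, Lx4A_dup9528 60 and 12, and L1MEc_dup4826, the only one of them on the strand of Dscam, 54 and 27. In all 3 the WT-t median was 0 CPM, and the TS-t medians were 23.5, 17.2 and 26 CPM. The mean difference gave a permutation p of 0.0114 for L1M2_dup16808, 0.00054 for Lx4A_dup9528 and 0.129 for L1MEc_dup4826. The highest library of L1MEc_dup4826 was WT-t 2 at 106 CPM, and without the libraries far on the first component its permutation p was 0.00416. Without the same libraries the p of Lx4A_dup9528 was 0.0180, where TS-t 1 and TS-t 2, both left out, had been its highest at 94.8 and 78.7 CPM, and that of L1M2_dup16808 was 0.0135.

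Outside the segments, L1_Mm_dup4871 was the most abundant listed element. It lies at chr16:31386704-31387928 on the minus strand, outside the genes of the annotation. In TS-t its lowest, median and highest levels were 867, 3148 and 3435 CPM, and in WT-t 871, 1750.4 and 3414 CPM. The ranges were nearly the same, but 11 of 13 TS-t libraries exceeded the WT-t median (mean 2662 ± 831 against 1810.5 ± 589 CPM, log2 fold change 0.56 ± 0.19 SE, unadjusted p = 0.00478). The difference lay between 0.51 and 0.64 when each library was left out in turn, and the means were 3306 against 2070.1 CPM for labels that begin with 19 and 2564 against 1669 CPM for those that begin with 20. Untreated cortex gave 3034 CPM in TS-nt and 1696 CPM in WT-nt (0.84 ± 0.25 SE), and treated hippocampus 0.47 ± 0.12 SE, without passing the adjustment (edgeR adjusted p = 0.185). Libraries of these groups also served in the comparisons behind the study's list. Among hippocampus labels that begin with 20 L1_Mm_dup4871 was at 0.23 (unadjusted edgeR p = 0.314).

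**Figure D3:**
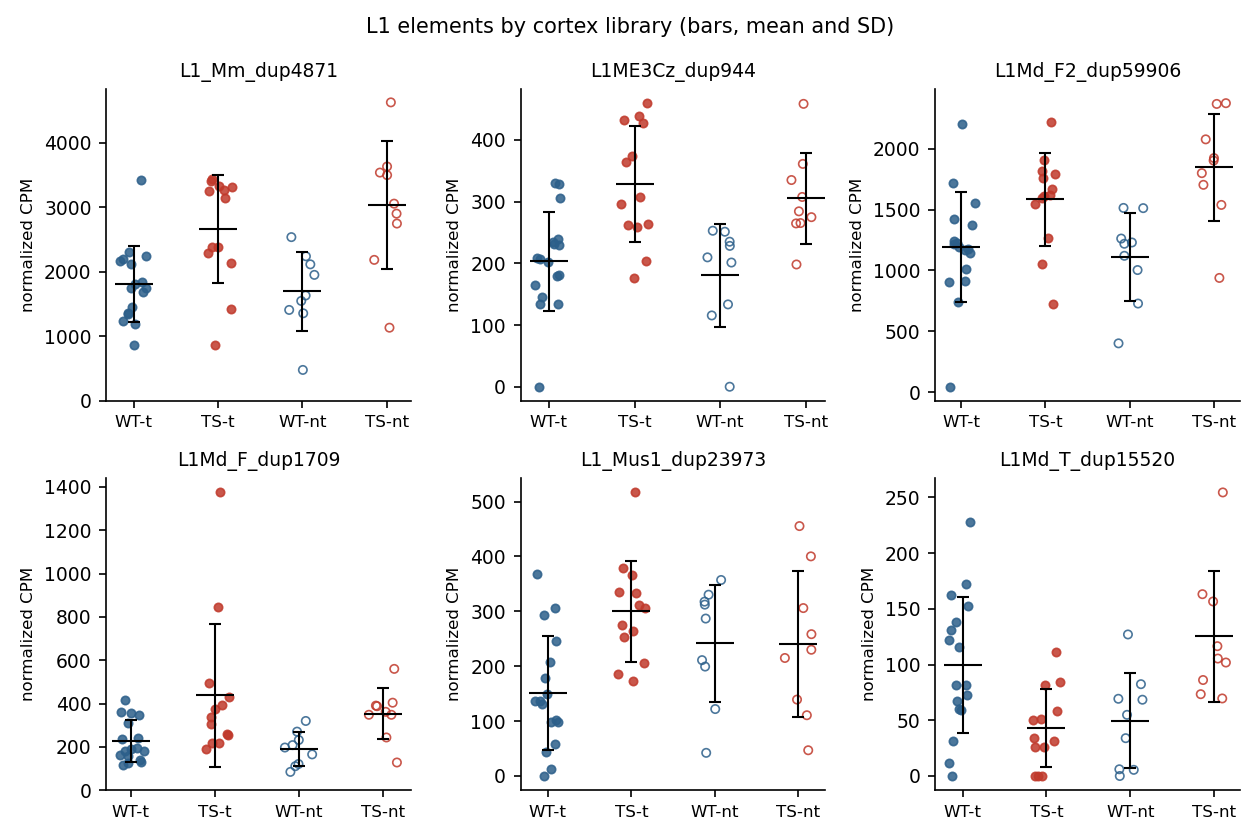
Normalized CPM of 6 elements in each cortex library, with filled points for treated and open points for untreated groups, red for TS and blue for WT, and black bars for the mean and SD of the group. L1_Mm_dup4871, L1ME3Cz_dup944 and L1Md_F2_dup59906 had higher means in TS both with and without lamivudine, L1_Mus1_dup23973 had means of 300.4 and 151 CPM in TS-t and WT-t and of 240.1 and 242 CPM in TS-nt and WT-nt, and the order of L1Md_T_dup15520 differed between treated and untreated mice.

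L1M5_dup15311, L1MD3_dup2285 and L1VL4_dup5634 lie on the plus strand of MMU17 within 15569 bases, chr17:51848865-51864433, outside genes and beyond the trisomic segment. L1M5_dup15311 had counts in 10 of 13 TS-t and 3 of 17 WT-t libraries, 71 and 7 counts in all (permutation p = 0.00012). Of the 71 counts, 25 were in TS-t 1, the treated library with the most L1 counts. Without the libraries far on the first component the permutation p of L1M5_dup15311 was 0.00050. Its means were 13.9 against 0.648 CPM among labels that begin with 19 and 25.6 against 6.96 CPM among those that begin with 20. For L1MD3_dup2285 the lowest, median and highest levels were 0, 61.3 and 94.8 CPM in TS-t and 0, 10.6 and 48 CPM in WT-t, and 7 of 13 TS-t libraries lay above every WT-t library (permutation p = 0.00012). L1VL4_dup5634, which could be fitted, was 0.73 ± 0.52 SE higher on the log2 scale in TS-t. These neighbouring copies therefore had higher means in TS-t although they are not in the segments as taken here. L1Md_A_dup15761, outside genes, was at -0.20 ± 0.38 SE (log2) in treated cortex and L1Md_F2_dup57795, in an intron of Fgd4, at -0.17 ± 0.46.

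**Figure D4:**
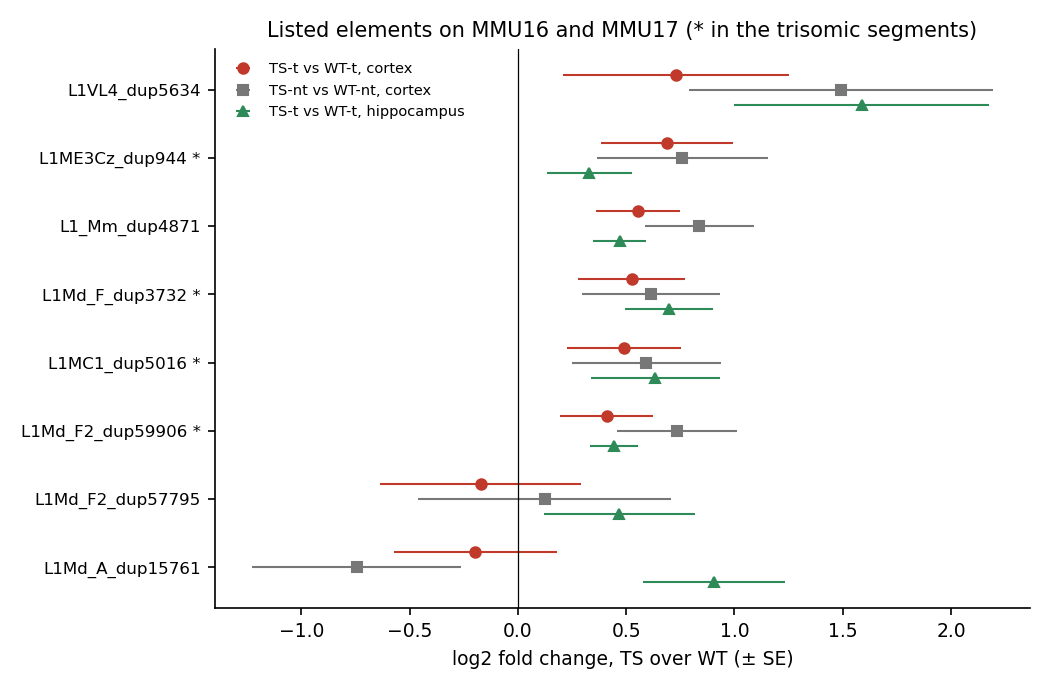
Log2 fold changes of TS over WT with their standard errors for 8 of the 9 tested elements of the list on MMU16 and MMU17, in treated cortex (red), untreated cortex (grey) and treated hippocampus (green), with an asterisk for those inside the trisomic segments. The 4 marked elements lie to the right of 0 in all 3 comparisons, between 0.41 and 0.69 in treated cortex. The study's list was drawn from comparisons that used some of these libraries, so that this direction is a description.

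The genotype effect in treated mice was set against that in untreated mice. TS-nt vs. WT-nt called 0 of the 5416 elements (0%), with 82 (1.51%) at an unadjusted p-value below 0.05, and the test of the change of the effect called 0 (0%), with 60 (1.11%). DESeq2 called 0 for that change, with 111 at an unadjusted p-value below 0.05. For sums over subfamilies edgeR called 0 of 133 for the change, with 28 at an unadjusted p-value below 0.05, 21 of them positive. DESeq2 called 18 of the 133 (13.5%), 15 of them positive, and gave no adjusted p-value for 67. The change was 0.35 ± 0.14 SE for L1Md_A, 0.48 ± 0.22 for L1Md_Gf and 0.40 ± 0.60 for L1Md_T. All untreated labels begin with 20, so that treatment and label cannot be fully told apart here. Over the elements tested, the log2 fold changes with and without lamivudine had a Pearson correlation of 0.051 (n = 5416 elements, which share depth and the model's spread). None of the 9 tested elements on MMU16 and MMU17 had an unadjusted p-value below 0.05 for the change. In treated hippocampus, 0 of 4238 elements were called (0%), with 167 (3.94%) at an unadjusted p-value below 0.05. All 9 elements on MMU16 and MMU17 had a positive log2 fold change there. Their median was 0.53, beside 0.013 for all 4238. The study's list was drawn in part from hippocampus comparisons with TS-t libraries, so that this direction is a description. Among hippocampus labels that begin with 20, 8 of the 9 were positive and none had an unadjusted p-value below 0.05. The median log2 fold change over all 6535 elements tested among these labels was 0.008. The hippocampus libraries carry the same 30 animal numbers as the cortex libraries, so that they are not an independent set of mice.

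The 10 elements with the highest level were next compared. L1MEd_dup2089 had 64412 CPM in the median TS-t and 61695 CPM in the median WT-t library, with ranges from 4892 to 467167 and from 43029 to 323330.2 CPM. Its log2 fold change of 0.33 ± 0.46 SE (95% confidence interval -0.59 to 1.24) was not distinguishable from 0, and means were 238839.7 against 57487 CPM for labels that begin with 19 and 58476 against 60368 CPM for those that begin with 20. L1Md_T_dup9904 varied most, from 23.5 to 199331 CPM in TS-t and from 61.1 to 196915 CPM in WT-t (0.64 ± 1.12 SE). The levels of L1ME3Cz_dup549 (0.11 ± 0.13 SE), Lx7_dup29483 (-0.03 ± 0.13), L1MEi_dup274 (0.11 ± 0.15), Lx_dup18222 (0.08 ± 0.16), HAL1_dup2781 (0.02 ± 0.28), L1M4_dup8058 (-0.09 ± 0.16) and Lx3B_dup3459 (-0.75 ± 0.77) were within 2 standard errors of 0.

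L1MC4_dup2661 was the exception among them. This copy lies in an exon of the long noncoding RNA gene 2900052N01Rik and in its direction. In TS-t its lowest, median and highest levels were 5985, 12085 and 18906 CPM and in WT-t 3091, 9604 and 12870.3 CPM. The ranges overlapped, with 2 of 13 TS-t libraries above every WT-t library (log2 fold change 0.33 ± 0.16 SE, unadjusted p = 0.0374). The value was 0.50 ± 0.20 SE in untreated cortex and 0.43 ± 0.13 SE in treated hippocampus, and none passed the adjustment. Treated cortex gave 0.61 ± 0.17 SE for L1MC4_dup2661 among labels that begin with 19 and 0.30 ± 0.19 SE among those that begin with 20, and hippocampus labels that begin with 20 gave 0.21 (unadjusted edgeR p = 0.330).

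Counts were then summed over the copies of each subfamily. Of 133 subfamilies, 0 (0%) were called in edgeR, and no adjusted p-value was under 0.144. Without adjustment 8 (6.02%) had a p-value below 0.05, of which 5 (3.76%) were higher and 3 (2.26%) lower. Sums were far more precise than single copies, with a median standard error of 0.09, and 125 of the 133 log2 fold changes lay within 0.25 of 0. The young subfamilies were at 0.13 ± 0.08 SE (L1Md_A), 0.22 ± 0.14 (L1Md_Gf) and -0.12 ± 0.37 (L1Md_T). L1Md_A was at 0.056 without TS-t 1 and at 0.020 without the libraries far on the first component, where L1Md_Gf was at 0.11. Relatives of L1Md_F gave 0.24 ± 0.11 (L1Md_F), 0.05 ± 0.07 (L1Md_F2) and -0.05 ± 0.12 (L1Md_F3), and L1Md_F was at 0.14 without TS-t 1 and 0.13 without the far libraries. L1Md_T was the least certain, at a 95% confidence interval of -0.87 to 0.63, and moved from -0.12 to 0.50 without WT-t 1. The single copy L1Md_T_dup9904 held 36.6% of the L1Md_T counts of the treated libraries, and without the most abundant copy L1Md_T was at 0.05 ± 0.07 SE.

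The smallest p-value belonged to L1MCa, an ancient subfamily, which was at 2650, 2959 and 3324 CPM in the lowest, median and highest TS-t library and at 2933, 3187 and 4135 CPM in WT-t. Its groups overlapped (log2 fold change -0.14 ± 0.04 SE, edgeR adjusted p = 0.144). DESeq2 with the 4 groups called it (adjusted p = 0.0300), as did edgeR with DESeq2's size factors (adjusted p = 0.0708). L1_Mm was at 3669.7, 4555 and 6292 CPM in TS-t and 2860.0, 3998 and 4909.9 CPM in WT-t, also with overlap (0.21 ± 0.07 SE, edgeR adjusted p = 0.144). The element L1_Mm_dup4871 of MMU16 held 26.1% of its counts in the treated libraries, and without that copy the difference was 0.10 ± 0.07 SE. HAL1_SS (0.35 ± 0.13 SE) had 96.8% of its counts on 1 copy, HAL1_SS_dup70, and Lx3B (-0.52 ± 0.22) had 47.2% on Lx3B_dup3459. In untreated cortex HAL1_SS was at 0.64 ± 0.17 SE (edgeR adjusted p = 0.0540). L1MA10 (0.43 ± 0.18) and Lx3C (-0.28 ± 0.11) were the other subfamilies named.

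The subfamily calls depended on the animal labels. With the first 2 digits of the label as a covariate in the 30 treated libraries, 33 of 132 subfamilies (25%) were called, 16 higher and 17 lower, with L1Md_F (0.32 ± 0.08 SE), L1Md_A (0.19 ± 0.05) and L1_Mm (0.25 ± 0.07) higher and L1MCa (-0.19 ± 0.05) lower, each at an edgeR adjusted p of 0.0301. Among labels that begin with 19, 36 subfamilies were called (27.3%), 16 of them higher, among them L1MEd at 1.87 ± 0.46 SE. Among labels that begin with 20, 0 of 132 were called (0%). TS-t 2 and TS-t 3, which carried 18.8% and 14.3% of their counts on L1MEd_dup2089, are 2 of the 4 TS-t libraries with labels that begin with 19. In alternatives chosen after seeing the data, 7 subfamilies were called among these labels without both libraries, all lower, and 0 with the covariate once the libraries far on the first component were left out, against 44 when only WT-t 1 was. With the label as covariate 0 of 2855 single elements (0%) were called, and 3 once the far libraries were left out. These 3 were L1Md_F_dup1709 (edgeR adjusted p = 0.00883), Lx9_dup26580 and Lx2_dup13613 (0.0575 each). By label, 99 of 3986 elements were called (2.48%, 54 higher) among labels that begin with 19, 5 without TS-t 2 and TS-t 3, none of them higher, and 0 of 5571 (0%) among labels that begin with 20. The 99 included L1Md_F_dup1709, Lx2_dup13613, L1_Mm_dup4871 and L1MC4_dup2661, and the 5 included none of these.

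**Figure D5:**
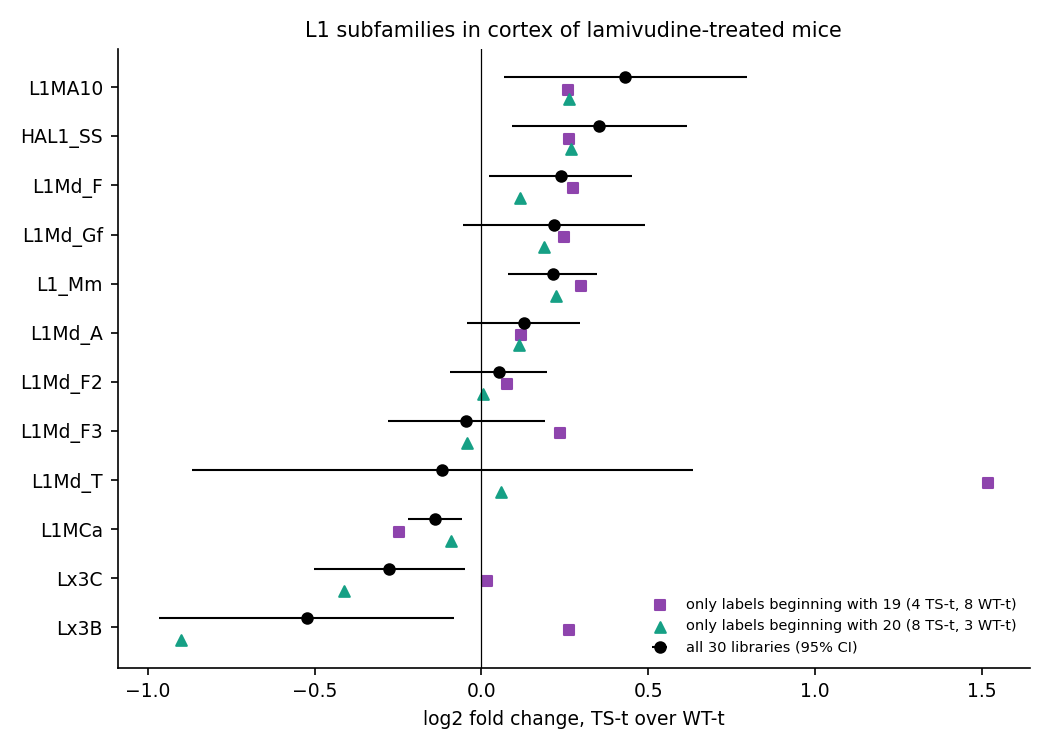
Log2 fold changes of TS-t over WT-t for 12 subfamilies, with all 30 libraries (black, 95% confidence interval), with labels that begin with 19 only (purple squares) and with labels that begin with 20 only (green triangles). L1Md_T moves from -0.12 to 1.52 among labels that begin with 19 and to 0.06 among those that begin with 20, while L1_Mm stays between 0.21 and 0.30.

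Elements were also grouped into 17 age classes by name, and the share of each class in the L1 counts of a library was compared by permutation. L1ME copies took the largest share, with a median of 14.8% in TS-t and 14.3% in WT-t and a mean difference of -0.548 percentage points (permutation p = 0.788), followed by Lx8, Lx9 and Lx10 at 12.4 ± 1.41% and 12.3 ± 1.67% (SD). Young copies held little, with L1Md_T at 3.78 ± 2.55% and 3.79 ± 3.99%, L1Md_A at 1.63 ± 0.192% and 1.51 ± 0.241% and L1Md_Gf at 0.113 ± 0.0197% and 0.0986 ± 0.0204%. The only class with an unadjusted permutation p below 0.05 was Lx3 and Lx4, at 4.45 ± 0.345% in TS-t and 4.98 ± 0.717% in WT-t (p = 0.0185, adjusted over the 17 classes 0.314). By element, the class medians of the log2 fold change were highest for L1Md_Gf (0.26, 9 elements), L1Md_A (0.17, 127 elements), the L1_Mur, L1VL and L1_Rod class (0.16, 315 elements) and the L1_Mus and L1_Mm class (0.15, 786 elements), beside 0.09 for all elements. In the last of these 510 of 786 elements had a positive value, beside 3286 of 5416 in all. Of the 9 L1Md_Gf elements tested 8 had a positive value, and 0 of them had an unadjusted p-value below 0.05. Without the libraries far on the first component the median over all elements was 0.01. The share difference without them moved from 0.117 to 0.0018 percentage points for L1Md_A and from 0.0144 to 0.0068 for L1Md_Gf. With all 30 libraries but without the 10 most abundant elements it was 0.129 for L1Md_A (permutation p = 0.0437) and 0.0167 for L1Md_Gf (permutation p = 0.0373). Both were at 0.266 after adjustment over the 17 classes.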

How the data were processed

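Total RNA of cortex was sequenced. Per the submitters' processing notes and the study's methods, adapters were removed with Trimmomatic 0.38 and HISAT2 2.1.0 placed reads on GRCm38/mm10 at up to 5 positions each, from which the authors obtained a count per L1 copy with Telescope. The deposited values are raw counts per copy, without normalization, and were used as deposited. A read from a repeat that fits several copies goes to the most probable one, so counts of near-identical copies can be split between them. Positions of named elements were taken from the study's element list and compared with the GENCODE M21 annotation of the same build.

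Elements were filtered with filterByExpr (minimum count 10, minimum total 15), normalized by TMM and tested by edgeR 4.0.16 (R 4.3.3, limma 3.58.1) with all 48 cortex libraries and 4 groups in the model. P-values were Benjamini-Hochberg adjusted over all features tested, with a threshold of 0.1. CPM are counts over the TMM-scaled total of the tested elements, on the usual CPM scale. Each group's depth is given as its range of L1 counts, and 0 per-sample columns of the table were left unused. DESeq2 1.42.0 was an alternative. Permutation tests were two-sided with 100000 resamples (Python 3.11.15, numpy 2.4.6). The test was also run on simulated counts with known changes. The simulation held no libraries of a different profile and no difference between animal labels, so that it does not cover these features of the data.

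Elements named were the 10 with the smallest p-values in each direction, the 14 listed on MMU16 or MMU17 and the 10 of highest level, and subfamilies named were L1Md_T, L1Md_A, L1Md_Gf, L1Md_F, L1Md_F2, L1Md_F3 and the 3 with the smallest p-values in each direction. The members and lists were chosen with earlier results of these data known, and for this reason no p-value adjusted over a list alone is given. Where no position was in the list, none is given. 1 listed element is not reported here on its own, and is included in the counts and medians.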

Additional observations from a re-analysis of the deposited data

How the results depend on the processing

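No element was called in edgeR, DESeq2 or with DESeq2's size factors, and leaving out each library in turn gave 0 to 0 called elements and 0 to 2 called subfamilies (2 without WT-t 11 or TS-t 8, 1 without WT-t 12, TS-t 7 or TS-t 10). Depth and spread limit single elements, whose median standard error was 0.49 (log2). With weaker filters the quasi-likelihood test called 25166 of 186107 elements (13.52%) at 10 or more counts in total. Without a filter it called 45425 of 350407 (12.96%). The called elements had medians of 15 counts in 4 libraries and of 10 counts in 2 libraries. In 56.4% and 72.7% of them, 1 library held at least as many counts as all others together. The first call in both settings, Lx7_dup10049, had its 129 counts in 1 library. In either setting 0 of the called elements were in the main test. A p-value below 0.05 with a log2 fold change of at least 1.5 held for 6 elements. By the beginning of the animal label, 99 elements and 36 subfamilies were called among labels that begin with 19, and 33 subfamilies but 0 elements with the label as covariate. DESeq2 with 4 groups and edgeR with size factors each called 1 subfamily. Among alternatives chosen after seeing the data, the covariate called 3 elements without the libraries far on the first component, 5 elements and 44 subfamilies without WT-t 1, and labels that begin with 19 without TS-t 2 and TS-t 3 gave 5 elements and 7 subfamilies. The cause was not tested. No paired analysis was possible because each cortex library carries a different animal number and the replicate numbers only name libraries.

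Of 679 further values, 594 kept direction and side of the threshold, 33 kept direction and passed it, and 52 changed sign. No element or subfamily passed it in the main test, so that none could lose it. Of those that changed sign, L1Md_T, L1Md_F3 and HAL1_dup2781 also passed it among labels that begin with 19 (edgeR adjusted p = 0.0375, 0.0510 and 0.0206). L1Md_T and L1Md_F3 did so with the label as covariate and without WT-t 1 (0.0289 and 0.0597). Log2 differences of changed sign follow by setting. L1Md_T was at 0.17 with DESeq2 and 2 groups and 0.53 with 4. With the label as covariate HAL1_dup2781 was at -0.49, L1Md_F3 at 0.12 and L1Md_T at 0.72, then -0.53, 0.16 and 0.83 also without WT-t 1. With the covariate and without the far libraries HAL1_dup2781 was at -0.42, Lx7_dup29483 at 0.022, L1Md_F2_dup57795 at 0.073, L1Md_F3 at 0.10 and L1Md_T at 0.54. Among labels that begin with 19, HAL1_dup2781 was at -0.88, Lx3C at 0.016, Lx3_Mus_dup1034 at 0.028, L1Md_F3 at 0.24, Lx3B at 0.26, L1Md_F2_dup57795 at 0.45, Lx3B_dup3459 at 0.62 and L1Md_T at 1.52. Without TS-t 2 and TS-t 3 these labels gave Lx_dup18222 at -0.089, L1Md_F2_dup59906 at -0.12, HAL1_SS at -0.17, HAL1_dup2781 at -0.77, Lx3B at 0.0034, L1Md_F3 at 0.013, Lx3C at 0.095, L1Md_T at 0.10, Lx4A_dup4224 at 0.14, Lx3B_dup3459 at 0.18 and L1Md_F2_dup57795 at 0.38. Among labels that begin with 20, L1MEd_dup2089 was at -0.032, L1ME3Cz_dup549 at -0.086, L1MEi_dup274 at -0.092, Lx7_dup29483 at 0.0069, L1Md_T at 0.060, L1Md_A_dup15761 at 0.25 and L1Md_T_dup15520 at 0.51. Without the far libraries Lx_dup18222 was at -0.0056, HAL1_dup2781 at -0.0087, L1Md_F3 at 0.028 and L1Md_T at 0.30, and without TS-t 3 as well L1Md_F2 was at -0.0039 and Lx_dup18222 at -0.061. In sums without the most abundant element L1Md_F3 was at 0.026 and L1Md_T at 0.050. Class shares of changed sign, as percentage points, were 0.27 for L1Md_T and 0.554 for L1ME with normalized counts, 0.437 and 1.07 without the far libraries, and 0.127 for L1Md_T without the 10 most abundant elements. With each library left out in turn L1MEd_dup2089 ranged from -0.052 to 0.54, Lx7_dup29483 from -0.086 to 0.023, L1Md_T_dup9904 from -0.11 to 1.67, HAL1_dup2781 from -0.071 to 0.10, L1Md_T from -0.48 to 0.50, L1Md_F2 from -0.013 to 0.073 and L1Md_F3 from -0.12 to 0.041.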
